A study of Mus musculus with 12 samples.

Results

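Described here are 8 genes of the insulin-like growth factor (IGF) system, *Igf1*, *Igf1r*, *Igfbp2*, *Igfbp3*, *Igfbp4*, *Igfbp5*, *Igfbp6* and *Igfbp7*, which were chosen by name from the 15687 genes measured. All 8 were found. RNA-seq was performed on 12 subcutaneous tumors of mTC11, a mouse lung cancer cell line, grown in immune-competent syngeneic male C57BL6/J mice that were 8 weeks old. The 6 CTL tumors came from cells with a control shRNA, and the 6 *Filip1l*-knockdown tumors from cells with an shRNA against *Filip1l*. Both kinds of cell had received a lentivirus and were selected with puromycin as mixed clones, and all tumors were taken on day 24. Which of the *Filip1l* shRNA constructs these tumors carried is not stated in the sources used here, so the knockdown group stands for 1 derivative or more of 1 cell line, and the host cells of the mice carry no shRNA.

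IGF1 and IGF2 are secreted ligands that bind the receptor tyrosine kinase IGF1R, which signals through docking proteins of the IRS family to PI3-kinase and AKT. In tissue fluid most of the ligand is held by the IGF-binding proteins, which carry it, keep it from the receptor or release it when proteases cut them. In tumors the ligand is commonly made by stromal cells and macrophages, while receptor and binding proteins are made by cancer cells as well as by stroma and vessels.

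Of the 8 genes, *Igfbp5* rose about 4-fold in the *Filip1l*-knockdown tumors, with a log2 change of 2.02 ± 0.12 (standard error, SE), where the log2 change is the difference of mean log2 values, *Filip1l*-knockdown minus CTL. *Igf1r*, the receptor, fell by 1.15 on the log2 scale, and *Igfbp3*, *Igfbp7* and *Igfbp4* fell by 0.91, 0.91 and 0.51. *Igf1*, *Igfbp2* and *Igfbp6* did not pass the test. Counted at a limma adjusted p under 0.05, 1 of the 8 was higher, where 21.1% of all genes were, and 4 were lower, where 20.7% of all genes were. With the added requirement of a log2 change beyond 1, *Igfbp5* was called higher (6.2% of all genes) and *Igf1r* lower (3.97% of all genes). The 2 groups did not overlap for 5 of the 8 genes, against 21.5% of all genes. The median log2 change of the 8 was -0.32, beside 0.01 for all genes.

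The promoters of the 5 genes that passed the test are shown because the direction differed among them, with 1 gene higher and 4 lower. Each line gives the 250 bases before the annotated start, 5′ to 3′ on the strand of the gene, from RefSeq on GRCm38.p6, where all 8 genes were matched. Capitals mark every match to 6 short motifs, each searched on both strands: the TATA box (TATAAA), the GC box (GGGCGG), the CCAAT box (CCAAT), and the sites of FOXO (GTAAACA), TCF/LEF (CTTTGAT) and AP-1 (TGACTCA).
*Igfbp5*, chr1:72874866-72875115, − strand: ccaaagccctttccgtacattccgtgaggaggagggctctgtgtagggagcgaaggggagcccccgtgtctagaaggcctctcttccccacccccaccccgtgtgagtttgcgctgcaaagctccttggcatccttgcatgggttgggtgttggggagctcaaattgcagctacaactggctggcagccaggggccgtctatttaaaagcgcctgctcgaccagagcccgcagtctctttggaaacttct
*Igf1r*, chr7:67952007-67952256, + strand: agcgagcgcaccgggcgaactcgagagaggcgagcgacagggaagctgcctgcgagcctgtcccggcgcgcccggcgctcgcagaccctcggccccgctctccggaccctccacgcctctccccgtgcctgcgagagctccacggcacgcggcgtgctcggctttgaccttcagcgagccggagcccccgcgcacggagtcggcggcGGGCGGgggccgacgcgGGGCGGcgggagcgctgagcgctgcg
*Igfbp7*, chr5:77408046-77408295, − strand: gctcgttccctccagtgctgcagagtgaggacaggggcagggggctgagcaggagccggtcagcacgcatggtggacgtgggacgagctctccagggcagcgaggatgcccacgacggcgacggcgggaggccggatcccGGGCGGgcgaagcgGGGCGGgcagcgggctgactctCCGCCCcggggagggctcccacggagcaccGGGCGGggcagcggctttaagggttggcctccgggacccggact
*Igfbp3*, chr11:7213924-7214173, − strand: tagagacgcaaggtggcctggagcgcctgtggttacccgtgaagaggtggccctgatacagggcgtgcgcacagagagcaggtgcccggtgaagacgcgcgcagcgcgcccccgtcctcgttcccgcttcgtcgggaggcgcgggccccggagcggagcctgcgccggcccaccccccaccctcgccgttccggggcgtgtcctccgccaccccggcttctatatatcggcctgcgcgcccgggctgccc
*Igfbp4*, chr11:99040994-99041243, + strand: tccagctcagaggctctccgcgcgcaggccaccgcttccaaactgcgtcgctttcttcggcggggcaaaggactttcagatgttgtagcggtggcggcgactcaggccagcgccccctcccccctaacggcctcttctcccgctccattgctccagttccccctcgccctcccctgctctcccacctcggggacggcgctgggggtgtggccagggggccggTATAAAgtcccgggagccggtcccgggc
The window of *Igfbp7* held 4 GC boxes and that of *Igf1r* 2, a motif in 32.7% of the 32851 promoters of the same length. *Igfbp4* had 1 TATA box, which 12.4% of promoters held. In the windows of *Igfbp3* and *Igfbp5* none of the 6 motifs was matched, and the FOXO, TCF/LEF and AP-1 letters, found in 3.17%, 3.21% and 4.46% of promoters, were matched in none of the 5 windows shown. The CCAAT box, present in 33.8% of promoters, was matched in none of them either. Among the genes not shown, the window of *Igf1* held 1 CCAAT box, that of *Igfbp6* 2 CCAAT boxes and 1 TATA box, and the windows at the 2 starts of *Igfbp2* held 3 GC boxes and 1 AP-1 match. The GC content was 58.8% for *Igfbp5* against 77.6% for *Igf1r*, 74% for *Igfbp7*, 73.2% for *Igfbp3* and 69.2% for *Igfbp4*, beside a median of 52.4% over all promoters. Such matches describe the letters only.

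Values are normalized counts, that is reads per gene divided by the size factor of the tumor, so they compare the same gene between tumors. Reads on the listed genes numbered 17834745 to 29502069 in CTL and 25460564 to 32419578 in *Filip1l*-knockdown tumors, and none of the 8 genes was at or under 3 reads in any tumor. The targeted gene *Filip1l* had 2311 ± 211 normalized counts in CTL and 1924 ± 165 in *Filip1l*-knockdown tumors (mean ± SD, 6 tumors a group), a log2 change of -0.26 (limma adjusted p = 0.00998), with overlapping groups. CTL replicate 5 and knockdown replicate 1 lay farthest from their own groups, with mean distances over all genes of 81.8 and 93.9 on the log2 scale, where the other tumors of each group lay 68.1 and 75.5 from each other. Results that moved without them are given both ways. The epithelial markers of the labelled cancer cells were present in every tumor. At a limma adjusted p under 0.05, 9 of 10 were higher in the *Filip1l*-knockdown tumors and 0 lower, beside 21.1% and 20.7% of all genes. Their log2 changes ran from 0.01 for *Cdh1*, which did not pass, and 0.44 for *Krt18* to 3.76 for *Cldn3*. The summed level ranged from 138427 to 179835 in CTL and from 199241 to 370406 in *Filip1l*-knockdown tumors. The part of cancer cell number in these differences was not tested.

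The ligand gene *Igf1* (ENSMUSG00000020053, chromosome 10, 87858265 to 87937042, + strand, GRCm38) encodes the main growth-promoting hormone of the system. In CTL tumors it had a lowest, median and highest value of 320, 402 and 431 normalized counts, and in *Filip1l*-knockdown tumors of 229, 308 and 637. The knockdown values spread around the CTL values on both sides, with replicates 1 and 3 above every CTL tumor, at 637 and 526, and replicates 4, 5 and 6 below every CTL tumor, at 229, 259 and 251. The means were 383 ± 46.1 and 377 ± 169 (mean ± SD, 6 tumors a group), and the coefficient of variation was 12% in CTL and 44.7% in *Filip1l*-knockdown tumors. The log2 change was -0.13 ± 0.23 (SE, adjusted p = 0.693 by limma, exact permutation p = 0.636, two-sided as throughout). An antisense gene, *Igf1os*, overlaps *Igf1*, and whether the counting used strand is not stated in the sources used here. Without CTL replicate 5 and knockdown replicate 1 the log2 change of *Igf1* was -0.28, and with single tumors left out it lay between -0.30 and -0.01.

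The receptor gene *Igf1r* (ENSMUSG00000005533, chromosome 7, 67952827 to 68233668, + strand) had a lowest, median and highest value of 2407, 2879 and 3285 normalized counts in CTL tumors and of 934, 1360 and 1463 in *Filip1l*-knockdown tumors. Every *Filip1l*-knockdown tumor lay below every CTL tumor. The means were 2879 ± 317 and 1308 ± 198 (mean ± SD, 6 tumors a group), a 2.21-fold lower level with a log2 change of -1.15 ± 0.11 (SE, adjusted p = 1.98e-06 by limma). The exact permutation p of 0.00216 is the smallest that 6 against 6 tumors can give. These are whole tumors, in which fewer cells of a type and less RNA per cell cannot be told apart. Knockdown replicate 6, at 934, was the lowest, and leaving it out gave -1.05.

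**Figure D1:**
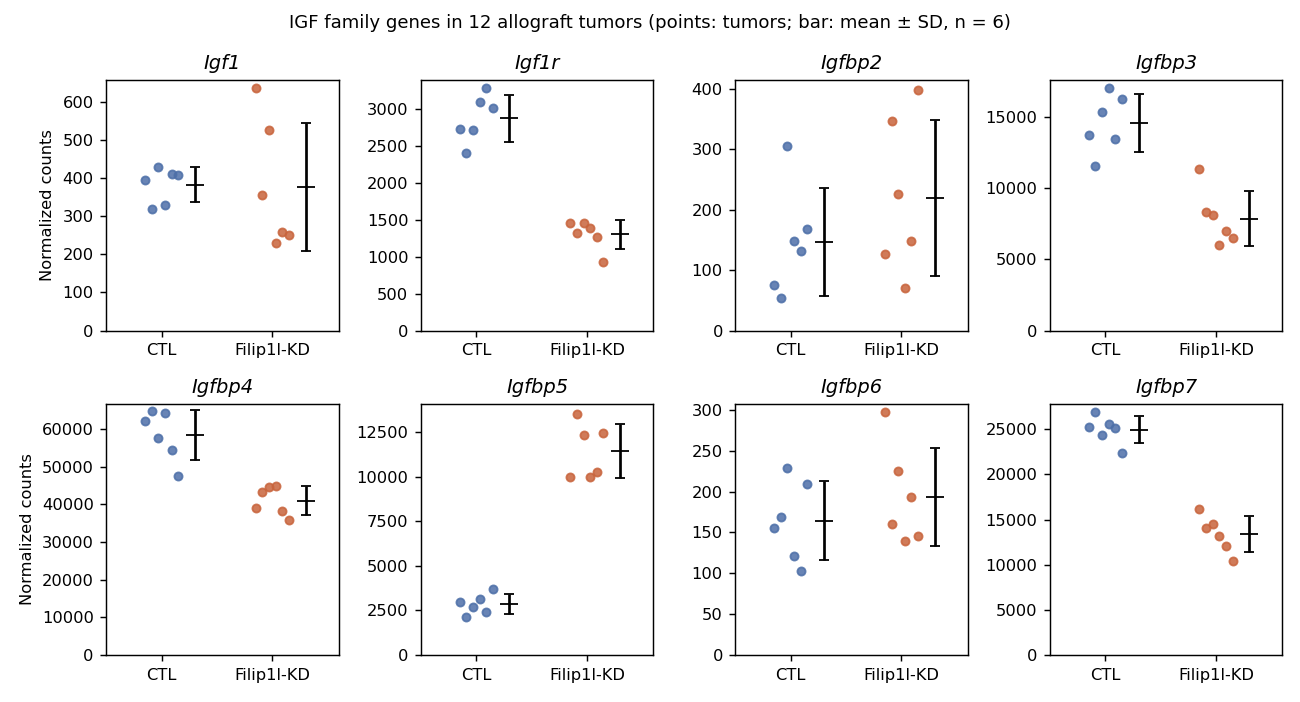
Normalized counts (vertical axes, linear from 0) of the 8 genes in the 6 CTL and 6 *Filip1l*-knockdown tumors, one panel per gene, with each point a tumor in replicate order and each bar the mean ± SD. The groups are separate for *Igf1r*, *Igfbp3*, *Igfbp4*, *Igfbp5* and *Igfbp7* and overlap for *Igf1*, *Igfbp2* and *Igfbp6*.

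The gene that rose, *Igfbp5* (ENSMUSG00000026185, chromosome 1, 72857932 to 72874884, − strand), encodes a binding protein that also attaches to extracellular matrix. CTL tumors had a lowest, median and highest value of 2124, 2851 and 3730 normalized counts. The *Filip1l*-knockdown tumors had 10014, 11297 and 13520. The lowest knockdown tumor thus lay far above the highest CTL tumor. The means were 2847 ± 571 and 11431 ± 1520 (mean ± SD, 6 tumors a group), a 4.05-fold higher level (limma adjusted p = 6.18e-08, exact permutation p = 0.00216). Leaving out single tumors gave log2 changes from 1.94 to 2.10.

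Skeletal muscle also makes *Igfbp5*, and muscle markers differed between the groups. At a limma adjusted p under 0.05, 9 of 12 were higher and none lower in the *Filip1l*-knockdown tumors, beside 21.1% and 20.7% of all genes. None of the 12 was at 0 in any tumor. Their summed level was 2403 to 13017 in CTL and 5630 to 94165 in *Filip1l*-knockdown tumors. Knockdown replicates 2 and 6 had muscle sums of 8124 and 5630, inside the CTL range, and *Igfbp5* at 13520 and 12441 normalized counts. Knockdown replicate 3, with the highest muscle sum, 94165, had 12327. With the muscle sum as a covariate, a fit chosen after seeing the data, the log2 change of *Igfbp5* was 2.07 (limma adjusted p = 1.57e-05). Among the 6 CTL tumors *Igfbp5* followed the muscle sum with r = 0.95, and among the 6 *Filip1l*-knockdown tumors r was -0.36. The part of muscle in the change of *Igfbp5* was not tested.

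*Igfbp3* (ENSMUSG00000020427, chromosome 11, 7206086 to 7213923, − strand) encodes the main carrier of IGFs in blood. Its lowest, median and highest values were 11544, 14558 and 17076 normalized counts in CTL and 6005, 7529 and 11336 in *Filip1l*-knockdown tumors. The groups did not overlap, although knockdown replicate 1, at 11336, came close to the lowest CTL tumor. The means were 14585 ± 2041 and 7872 ± 1924 (mean ± SD, 6 tumors a group), with a log2 change of -0.91 ± 0.14 (SE, adjusted p = 0.000132 by limma). Without knockdown replicate 1 the log2 change was -1.02, and without that tumor and CTL replicate 5 it was -1.04, so that *Igfbp3* then also passed the fold threshold.

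*Igfbp7* (ENSMUSG00000036256, chromosome 5, 77349240 to 77408041, − strand) encodes a secreted relative of the family with low affinity for IGFs. It had 22375, 25195 and 26960 normalized counts as lowest, median and highest CTL values and 10415, 13611 and 16135 as the *Filip1l*-knockdown values. No knockdown tumor reached the CTL range. The means were 24941 ± 1518 and 13397 ± 1994 (mean ± SD, 6 tumors a group), with a log2 change of -0.91 ± 0.09 (SE, adjusted p = 3.63e-06 by limma). With trends in GC content and gene length removed it was -1.04. An opposite-strand gene, *Polr2b*, overlaps *Igfbp7* by 85 bases, and its own log2 change was -0.09 (limma adjusted p = 0.212).

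*Igfbp4* (ENSMUSG00000017493, chromosome 11, 99041244 to 99054392, + strand) encodes a binding protein that holds IGFs away from the receptor until the protease PAPPA cuts it. Its lowest, median and highest values were 47500, 59968 and 64757 normalized counts in CTL and 35767, 41137 and 44938 in *Filip1l*-knockdown tumors. The highest knockdown tumor was just under the lowest CTL tumor. The means of 58501 ± 6710 and 40957 ± 3833 (mean ± SD, 6 tumors a group) gave a log2 change of -0.51 ± 0.09 (SE, adjusted p = 0.000467 by limma), the smallest among the genes that passed.

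The binding protein genes *Igfbp2* and *Igfbp6* had low levels and wide spreads. *Igfbp2* (ENSMUSG00000039323, chromosome 1, 72824503 to 72852474, + strand), which encodes a binding protein common in serum, had 53.0, 140 and 305 normalized counts as lowest, median and highest CTL values and 70.5, 188 and 397 in *Filip1l*-knockdown tumors. Its log2 change was 0.56 ± 0.45 (SE, adjusted p = 0.348 by limma, exact permutation p = 0.305). *Igfbp6* (ENSMUSG00000023046, chromosome 15, 102144362 to 102149511, + strand), which encodes a binding protein that prefers IGF2, had 103, 162 and 228 normalized counts in CTL and 140, 177 and 297 in *Filip1l*-knockdown tumors. Its log2 change was 0.24 ± 0.22 (SE, adjusted p = 0.423 by limma, exact permutation p = 0.359). The ranges overlapped for both genes, and the difference for *Igfbp6* was -0.02 once CTL replicate 5 and knockdown replicate 1 were left out.

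**Figure D2:**
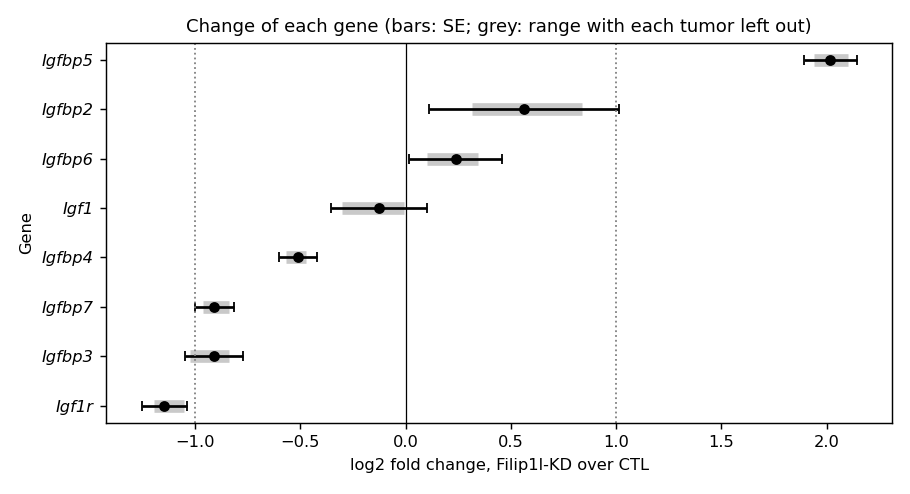
Log2 fold change of each of the 8 genes (horizontal axis, *Filip1l*-knockdown over CTL, n = 6 each), with the standard error as a black bar, the range with each tumor left out as a grey band, and dotted lines at the fold threshold of 1 in each direction. *Igfbp5* stands at 2.02, past the right line, and *Igf1r* at -1.15, past the left line, while the bars of *Igfbp2*, *Igfbp6* and *Igf1* lie at 0.56, 0.24 and -0.13.

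To compare the genes with each other, normalized counts were divided by the exon length of each gene in kb. On this scale the order in CTL tumors was *Igfbp7* (20629), *Igfbp4* (13248), *Igfbp3* (4660) and *Igfbp5* (474), 4 genes whose ranges did not overlap, followed by *Igf1r* (171), *Igfbp6* (148), *Igfbp2* (79.5) and *Igf1* (38.7), whose neighbours in the order overlapped. In *Filip1l*-knockdown tumors *Igfbp7* (11081) and *Igfbp4* (9275) overlapped, as did *Igfbp3* (2515) and *Igfbp5* (1903). The level of *Igfbp5* over that of *Igfbp3* per kb was 0.101 ± 0.0118 in CTL and 0.789 ± 0.180 in *Filip1l*-knockdown tumors (mean ± SD, 6 tumors a group), with ranges of 0.0918 to 0.119 and of 0.461 to 1.00 that did not overlap. *Igfbp6* (174), *Igfbp2* (119), *Igf1r* (77.9) and *Igf1* (38.0) followed below them, each overlapping the next.

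Together the 6 *Igfbp* genes had a summed level per kb of 39238 ± 2370 in CTL and 25067 ± 2614 in *Filip1l*-knockdown tumors (mean ± SD, 6 tumors a group). The sums ranged from 35368 to 41892 and from 21204 to 27798, without overlap. Of this sum *Igfbp5* made up 1.22% ± 0.301 in CTL and 7.67% ± 1.32 in *Filip1l*-knockdown tumors. The share of *Igfbp7* was 52.6% ± 1.58 and 44.0% ± 2.36, that of *Igfbp4* 33.7% ± 1.97 and 37.1% ± 3.03, and that of *Igfbp3* 11.9% ± 1.97 and 9.97% ± 1.71. *Igfbp6* and *Igfbp2* made up 0.380% and 0.205% in CTL and 0.689% and 0.487% in *Filip1l*-knockdown tumors. These shares depend on the division by length. Without it *Igfbp4* made up 57.7% in CTL and 55.3% in *Filip1l*-knockdown tumors, above *Igfbp7* at 24.7% and 18.0%, and *Igfbp5* made up 2.84% and 15.5%. The summed *Igfbp* level stood at 1033 ± 186 times the level of *Igf1* in CTL and 744 ± 239 times in *Filip1l*-knockdown tumors, ranges that overlapped. This ratio of transcripts leaves out *Igf2*, which averaged 51.9 per kb in CTL and 59.1 in *Filip1l*-knockdown tumors. It also includes *Igfbp7*, whose protein has low affinity for IGFs, so it does not measure binding protein against ligand.

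**Figure D3:**
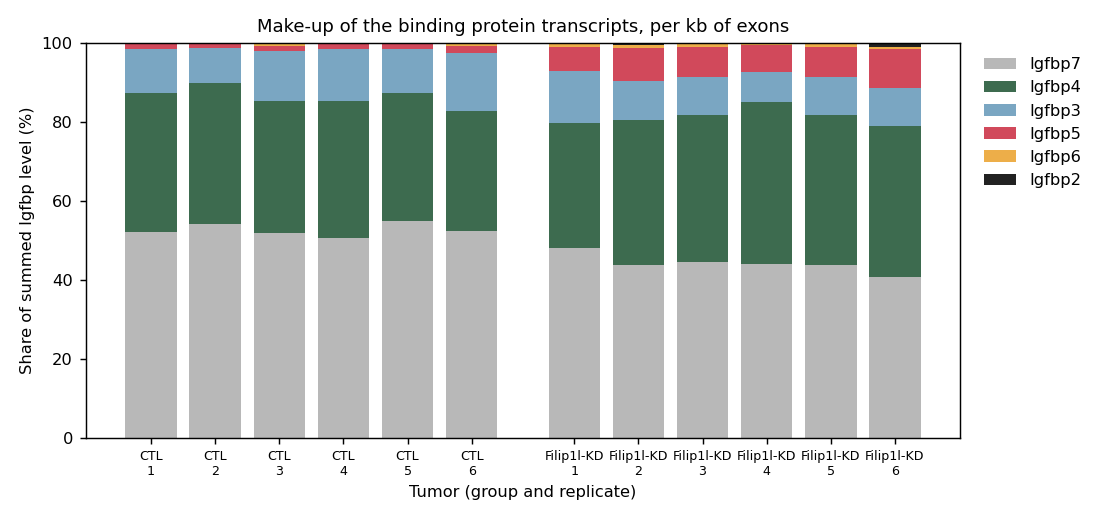
Share of each of 6 *Igfbp* genes in their summed level per kb of exons (vertical axis, percent) in each tumor (horizontal axis, group and replicate). The band of *Igfbp5* is between 0.859% and 1.76% in the CTL tumors and between 6.00% and 9.77% in the *Filip1l*-knockdown tumors.

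The genomic neighbours of the genes were read from the same fit. *Igfbp5* and *Igfbp2* are neighbours tail to tail, 5457 bases apart with no annotated gene between them, and had log2 changes of 2.02 and 0.56. None of the 5 measured genes within 500 kb of *Igfbp5* was higher at a limma adjusted p under 0.05, and 1, *Smarcal1*, was lower (-0.27). *Igfbp3* lies 3539 bases from *Igfbp1*, which was at 0 in some tumors of both groups and averaged 19.0 and 18.1 normalized counts. Of the 5 measured genes within 500 kb of *Igf1r*, 1 was lower, *Ttc23* (-0.30), and none was called under both thresholds. Around *Igfbp4* 10 of 21 measured neighbours passed an adjusted p under 0.05 and 3 were called, around *Igfbp6* 13 of 29 and 2, and around *Igfbp7* 5 of 9 and 1. Of the neighbours of *Igfbp3* 0 of 2 passed, of those of *Igf1* 2 of 6, and of those of *Igfbp2* 2 of 5, *Igfbp5* included. Over all genes, 21.1% were higher and 20.7% lower at that threshold, and 6.2% and 3.97% were called higher and lower. The chromosomes of the 8 genes had median log2 changes between -0.04 and 0.04.

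Other ligands, receptors and binding protein relatives of the system were read from a list of 9 genes, of which 6 were measured. These 6 included *Igfbp1*, which was at or under 3 reads in 6 tumors. At a limma adjusted p under 0.05, 1 of the 6 genes was higher and 2 were lower, beside 21.1% and 20.7% of all genes. The median log2 change was 0.39. *Igf2r*, the receptor that clears IGF2 and has no kinase, rose from 2374 ± 129 to 3938 ± 190 normalized counts (mean ± SD, 6 tumors a group), a log2 change of 0.73 (limma adjusted p = 1.67e-07), without overlap. *Insr*, the insulin receptor, fell by 0.37 on the log2 scale (limma adjusted p = 0.00122). It lies on chromosome 8, whose genes had a median log2 change of -0.19, and with chromosome medians removed its log2 change was -0.17 and it did not pass (limma adjusted p = 0.102). *Ghr*, the growth hormone receptor, fell from 1027 ± 276 to 455 ± 129 normalized counts, a log2 change of -1.17 (limma adjusted p = 0.000725), with overlapping groups. The second ligand gene, *Igf2*, ranged from 30.1 to 632 normalized counts in CTL and from 172 to 448 in *Filip1l*-knockdown tumors, with a log2 change of 0.82 (limma adjusted p = 0.348). Per kb, *Igf1r* stood at 1.48 ± 0.180 times the level of *Insr* in CTL and 0.858 ± 0.0810 times in *Filip1l*-knockdown tumors, and at 0.675 ± 0.0905 and 0.184 ± 0.0235 times the level of *Igf2r*. Neither ratio overlapped between the groups.

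Among 8 proteases of the binding proteins and their inhibitors, 7 were measured. Of these 1 was higher and 3 were lower, beside 21.1% and 20.7% of all genes, with a median log2 change of -0.76. *Stc2*, which encodes stanniocalcin 2, an inhibitor of PAPPA, rose from 252 ± 65.8 to 739 ± 139 normalized counts, a log2 change of 1.57 (limma adjusted p = 6.13e-06). The related *Stc1* had a log2 change of -0.07 (limma adjusted p = 0.794). It lies on chromosome 14, whose genes had a median log2 change of 0.39. With chromosome medians removed its log2 change was -0.45 (limma adjusted p = 0.0513). *Htra1*, a secreted serine protease, fell from 1324 ± 166 to 637 ± 107 normalized counts, a log2 change of -1.06 (limma adjusted p = 7.09e-06). *Adam12*, a metalloprotease that cuts IGFBP3 and IGFBP5, fell from 1096 ± 317 to 482 ± 138 normalized counts, a log2 change of -1.18 (limma adjusted p = 0.000323). *Htra3* fell by 0.82 on the log2 scale (limma adjusted p = 0.00158), with knockdown replicate 1 at 602 normalized counts inside the CTL range. All 3 IGF2 mRNA-binding proteins, which bind and stabilize transcripts, were measured. Of these 0 were higher and 2 lower, beside the same shares of all genes. *Igf2bp1* fell from 27.7 ± 4.60 to 11.3 ± 4.53 normalized counts, a log2 change of -1.29 (limma adjusted p = 0.00169), *Igf2bp2* fell by 0.38 (limma adjusted p = 0.00186), and *Igf2bp3* had a log2 change of 0.04 (limma adjusted p = 0.958).

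**Figure D4:**
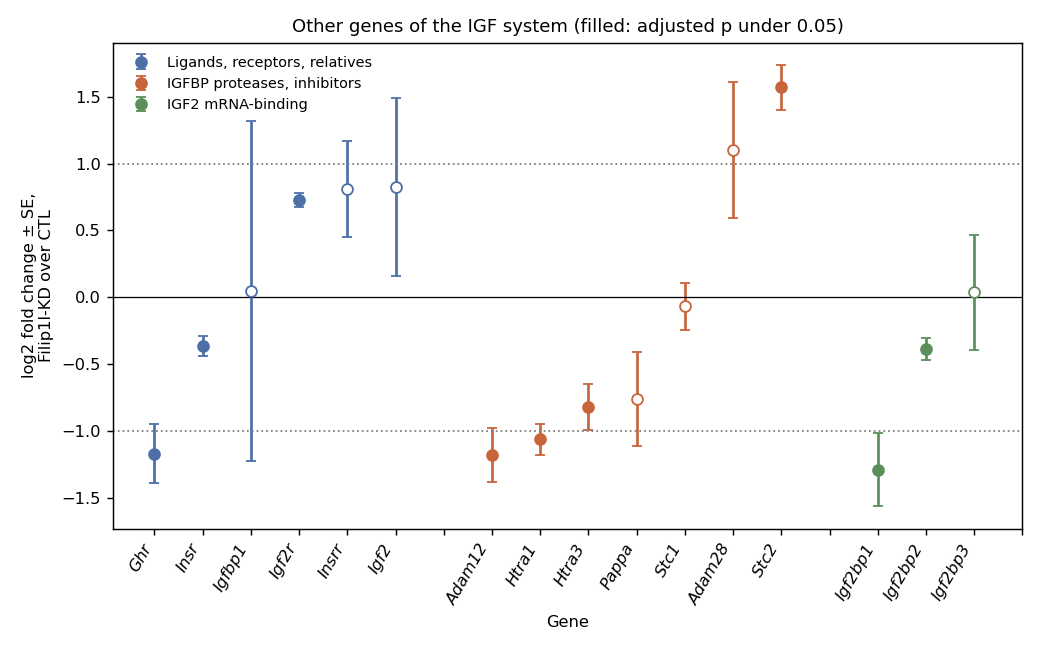
Log2 fold change ± standard error (vertical axis, *Filip1l*-knockdown over CTL, n = 6 each) of the measured genes of 3 lists, the other ligands, receptors and relatives, the proteases and their inhibitors, and the IGF2 mRNA-binding proteins. Filled points passed a limma adjusted p under 0.05 and dotted lines mark the fold threshold, which *Stc2* passed upward at 1.57 and *Ghr*, *Adam12*, *Htra1* and *Igf2bp1* passed downward.

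Below the receptor, 31 of 32 listed adaptors and kinases were measured, of which 4 were higher and 14 lower, beside 21.1% and 20.7% of all genes, with a median log2 change of -0.13. With GC and length trends removed, 9 were lower. Under both thresholds 0 were called higher and 4 lower, beside 6.2% and 3.97% of all genes. *Irs2*, a docking protein of the receptor, fell from 1507 ± 116 to 660 ± 113 normalized counts (mean ± SD, 6 tumors a group), a log2 change of -1.21 (limma adjusted p = 1.01e-06). *Gab1*, another docking protein, fell from 494 ± 50.9 to 208 ± 47.7 normalized counts, a log2 change of -1.26 (limma adjusted p = 5.59e-06). *Grb14*, which encodes an inhibitor of the receptor kinases, had 71.7 ± 12.9 and 36.6 ± 22.5 normalized counts, a log2 change of -1.10 (limma adjusted p = 0.00717) with overlapping groups. Of the most abundant genes of the list, *Shc1* and *Pik3r2* each fell by 0.42, whereas *Akt1* and *Grb2* had log2 changes of 0.00 and 0.10 and did not pass. *Irs2*, *Gab1* and *Pik3r2* also lie on chromosome 8, and with chromosome medians removed their log2 changes were -1.01, -1.07 and -0.22, each still at a limma adjusted p under 0.05.

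FOXO factors are held out of the nucleus when AKT is active. Of 16 FOXO genes and genes that FOXO factors are known to induce, all measured, 3 were higher and 6 lower, beside 21.1% and 20.7% of all genes, none passed both thresholds, and the median log2 change was -0.05. With GC and length trends removed, 5 were higher. The most abundant went both ways. *Cited2* and *Ccng2* rose by a log2 change of 0.43 and 0.33 (limma adjusted p = 0.0102 and 0.00188), while *Gadd45a* and *Cdkn1b* fell by 0.78 and 0.19 (limma adjusted p = 7.57e-05 and 0.0149).

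Several of the 8 genes varied between tumors of the same group together with markers of host cells. With group means removed, *Igf1* followed the summed macrophage markers over the 12 tumors with r = 0.91 (rho 0.89, and r = 0.79 without the 2 farthest tumors) and the fibroblast markers with r = 0.84 (0.61 without the 2 farthest tumors, and 0.23 within CTL and 0.94 within *Filip1l*-knockdown tumors). In knockdown replicates 1 and 3, which had the most *Igf1*, the macrophage sums were 26853 and 21389, the highest of their group. Between the groups, 1 of 10 macrophage markers was higher and none lower, beside 21.1% and 20.7% of all genes. The macrophage sums were 16495 to 23012 in CTL and 14541 to 26853 in *Filip1l*-knockdown tumors. *Igfbp3* followed the macrophage sum with r = 0.80, which was 0.52 without the 2 farthest tumors, 0.36 within CTL and 0.95 within *Filip1l*-knockdown tumors. With the fibroblast sum its r was 0.77, which was 0.37 without the 2 farthest tumors, 0.17 within CTL and 0.95 within *Filip1l*-knockdown tumors. *Igfbp6* followed the pericyte and smooth muscle sum with r = 0.88, the fibroblast sum with 0.87, the macrophage sum with 0.84 and the endothelial sum with 0.74. Without the 2 farthest tumors these were 0.84, 0.79, 0.85 and 0.56. *Igfbp4* and *Igfbp5* had r = -0.13 and 0.13 with the fibroblast sum. All of these points share their libraries and the correlations are descriptions.

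**Figure D5:**
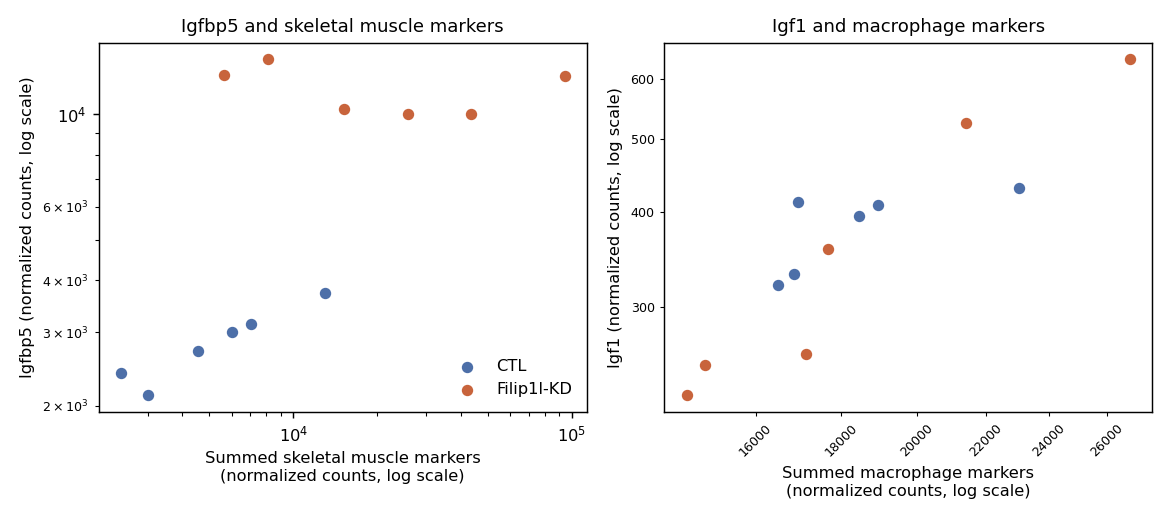
*Igfbp5* against the summed skeletal muscle markers (left) and *Igf1* against the summed macrophage markers (right), in normalized counts on log axes, one point per tumor. The *Igfbp5* values are 2124 to 3730 in CTL and 10014 to 13520 in *Filip1l*-knockdown tumors, and the muscle sums of the groups overlap only from 5630 to 13017. The *Igf1* points rise with the macrophage sum in both groups, with r = 0.70 within CTL and 0.96 within *Filip1l*-knockdown tumors.

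Fibroblast markers were lower for 3 of 10 genes and higher for none, with sums of 172163 to 287927 in CTL and 81127 to 265183 in *Filip1l*-knockdown tumors, and endothelial markers were higher for 7 of 10 and lower for none, with sums of 3587 to 4404 and 4396 to 7033. No measured marker of any list was at 0 in any tumor. Measured were 6 of 8 neutrophil, 5 of 8 adipocyte and 4 of 8 epidermal markers, and the levels of the others are not known. The lowest mean of any gene given was 9.28 normalized counts. Neutrophil markers were higher for 5 of 6 measured genes, adipocyte markers for 2 of 5 and T cell markers for 0 of 8, epidermal markers were lower for 2 of 4, and of 10 pericyte and smooth muscle markers 1 was higher and 2 were lower. Over all genes, 21.1% were higher and 20.7% lower. The part of these cells in the results was not tested. The fits that follow were chosen after seeing the data. Where a marker sum differs between the groups, as the endothelial sum does, a fit cannot tell its part from that of the knockdown. None used the epithelial sum, which ranged from 138427 to 179835 in CTL and from 199241 to 370406 in *Filip1l*-knockdown tumors. With each of the muscle, fibroblast and endothelial sums as a covariate in turn, *Igf1r* had log2 changes between -1.41 and -1.10. Those of *Igfbp4* lay between -0.56 and -0.54, of *Igfbp7* between -1.19 and -0.77, and of *Igfbp5* between 1.93 and 2.08. In each fit these genes had a limma adjusted p under 0.05. *Igfbp3* ranged from -0.56 with the fibroblast sum (limma adjusted p = 0.00635) to -1.30 with the endothelial sum. *Igfbp2* was between 0.83 and 1.64 and did not pass the test. *Igf1* and *Igfbp6* changed sign between these fits. *Igf1* was 0.50 with the fibroblast sum (limma adjusted p = 0.0545) and -0.85 with the endothelial sum (limma adjusted p = 0.0549). *Igfbp6* was 0.85 with the fibroblast sum (limma adjusted p = 0.00346) and -0.58 with the endothelial sum (limma adjusted p = 0.132).

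Among the 8 genes themselves, 9 of 28 pairs had r above 0.5 with group means removed, and 0 had r under -0.5 (12 tumors). The highest was *Igf1* with *Igfbp3*, r = 0.79, which was 0.27 within CTL and 0.92 within *Filip1l*-knockdown tumors, and 0.51 without the 2 farthest tumors. The neighbours *Igfbp2* and *Igfbp5* had r = 0.60, and 0.36 without the 2 farthest tumors.

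Over the 12867 other genes that averaged 50 normalized counts or more, the 3 whose variation over the 12 tumors was most like that of each gene were named. For *Igf1* they were *Ms4a6b* (r = 0.95), *Trpm2* and *Ifi209*, and for *Igfbp3* they were *Col15a1* (r = 0.93), *Cd53* and *Kit*. For *Igfbp5* they were *Fam124a* (r = 0.92), *Prokr2* and *Hdc*, whose own log2 changes were 2.43, -1.40 and 1.68. *Igf1r* was closest to *Tspan5* (r = 0.92), *Rad52* and *Podxl2*, and *Igfbp7* to *Anks1b* (r = 0.93), *Cnn3* and *Cubn*. All of these 6 were lower at a limma adjusted p under 0.05, beside 20.7% of all genes. *Igfbp4* was closest to *Nes* (r = 0.94), *Sec14l1* and *Fscn1*, *Igfbp2* to *Glrx* (r = 0.95), *Cd74* and *Gata3*, and *Igfbp6* to *Srpx* (r = 0.95), *Myh10* and *Lipo3*. None of the genes named for *Igf1*, *Igfbp3* and *Igfbp4* passed that threshold in either direction. Of those named for *Igfbp2* and *Igfbp6*, *Glrx* was higher (log2 change 1.13), *Myh10* was lower (-0.65) and the others did not pass.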

How the data were processed

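RNA-seq of 12 tumors gave 1 value per gene and tumor. Per the labels and the study's methods, the authors trimmed paired reads with Trimmomatic 0.36, aligned them with STAR 2.5.2b to mm10, counted them with featureCounts of Subread 1.5.2 and divided by DESeq2 size factors. The deposited values are therefore a normalized signal, not raw counts. All values were whole multiples (tolerance 0.001) of 1 step per tumor, from which reads per tumor were taken. Because that step was too near 1 in some tumors to be told from raw counts, no count model was run.

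Symbols, positions and exon lengths came from GENCODE vM21 on GRCm38 (mm10), with 99.8% of identifiers found, and promoters from RefSeq on GRCm38.p6. log2 values with a pseudocount of 1 were tested between the groups by limma-trend (limma 3.58.1, R 4.3.3), with Benjamini-Hochberg adjustment over 15687 genes. A filter at a mean of 5 removed 0 genes. Calls used an adjusted p under 0.05, alone or together with a log2 fold change beyond 1 in either direction, as in the study. Permutation tests were exact and two-sided, over 924 arrangements of the tumors. Tumors are labelled as biological replicates. The 8 genes and all lists were chosen with earlier results of these data known. Named are these genes, *Filip1l*, in each list the genes passing both thresholds and up to 4 of the highest level per kb, and the 3 genes most like each of the 8. *Polr2b*, *Igfbp1*, *Smarcal1* and *Ttc23* were named afterwards, as neighbours. A single-gene result is not reported here.

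Marker lists covered 10 cell types. Alternatives were pseudocounts of 0.5 and 8, no filter or a filter at 20, other scalings, no trend, the replicate number as a block, removal of chromosome medians or of GC and length trends, other gene lengths, and leaving out tumors. Covariates from marker sums were chosen after seeing the data. Plots were made in Python 3.11.15 (matplotlib 3.10.9). The reads carry no molecular identifiers.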

Additional observations from a re-analysis of the deposited data

Results flagged for a closer look

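In 5 of 64 groups of 6 tumors, over 32 genes, 1 tumor lay apart from the rest by Dixon's test, which chance gives in about 1 in 20 groups. Among the 8 genes this was *Igf1r* in knockdown replicate 6, at 934 normalized counts where the next lowest knockdown tumor had 1274. *Htra3* and *Grb14* stood apart in knockdown replicate 1, with 602 normalized counts against 347 in the next tumor and with 80.7 against 34.9. *Akt1* was highest in knockdown replicate 4, at 9343 against 8366, and *Pik3r2* in CTL replicate 3, at 4619 against 4082.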

How the results depend on the processing

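The 5 genes that passed the test, *Igfbp5*, *Igf1r*, *Igfbp3*, *Igfbp7* and *Igfbp4*, kept their direction and an adjusted p under 0.05 with each of the 12 tumors left out and under all 11 other settings that need no marker sum, and *Igf1* and *Igfbp2* did not pass in any of them. *Igf1* changed sign, to 0.055, when GC and length trends were removed, and was 0.50 with fibroblast markers as a covariate. *Igfbp6* was -0.018 without CTL replicate 5 and knockdown replicate 1, -0.042 with muscle, -0.58 with endothelial and 0.85 with fibroblast markers as a covariate, and passed the test only with the last. *Igf2bp3* turned to -0.012 with a pseudocount of 8 and to -0.0037 with equal totals, and lay between -0.25 and 0.29 with a tumor left out. *Akt1* was -0.0075 at equal 75th percentiles, -0.038 with equal totals, -0.0058 with muscle and -0.073 with fibroblast markers as a covariate. With a tumor left out *Akt1* lay between -0.029 and 0.020, and *Stc1* between -0.16 and 0.032. With chromosome medians removed *Stc1* was -0.45. With GC and length trends removed, 9 adaptors and kinases were lower and 5 FOXO-related genes higher. With chromosome medians removed, 1 of the other ligands, receptors and relatives was lower, *Insr* having lost its call. With a filter at 20, which left *Igf2bp1* and *Igf2bp3* out, 1 IGF2 mRNA-binding gene was lower. Without CTL replicate 6 or knockdown replicate 6, 2 adaptors and kinases were higher (range 2 to 5), and without knockdown replicate 1, alone or with CTL replicate 5, 2 proteases or inhibitors were (range 1 to 2). With fibroblast markers as a covariate *Filip1l*, *Htra3*, *Grb14*, *Cited2* and *Cdkn1b* no longer passed, with endothelial markers *Igf2bp1*, *Igf2bp2*, *Pik3r2* and *Cdkn1b*, and with muscle markers *Filip1l*, all in the same direction as before. The cause was not tested. Shares of the *Igfbp* sum depend on the length used. With the longest transcript, *Igfbp7* made up 48.6% in CTL and 40.7% in *Filip1l*-knockdown tumors and *Igfbp3* 14.1% and 11.8%. Without a length, *Igfbp4* made up 57.7% and 55.3%, *Igfbp7* 24.7% and 18.0%, *Igfbp5* 2.84% and 15.5%, *Igfbp6* 0.164% and 0.261%, and *Igfbp3* 14.5% in CTL. Tumors with the same replicate number did not deviate together (correlations -0.269 to 0.0990), so they were not paired. With the replicate number as a block, 953 genes were called higher and 601 lower, beside 973 and 623, and *Igfbp5* had 2.02 and *Igf1r* -1.15 as before. Groups of 6 tumors limit the genes with wide spreads, *Igf1*, *Igfbp2* and *Igfbp6*.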
